A study of Mus musculus with 12 samples.

Results

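The 9 genes described here were *Epo*, *Epor*, *Jak2*, *Stat5a*, *Stat5b*, *Cish*, *Socs2*, *Socs3*, and *Pim1*, which encode a ligand, its receptor, the kinase and transcription factors that act behind the receptor, and 4 targets of those factors. They were taken by name from the 38127 genes of each count table, and all 9 passed the low count filter that left 16643 genes for testing. RNA came from fetal liver (FL) of C57BL/6 mice, digested with liberase and sorted as Ter119-CD45- cells, so that cells carrying the red cell marker Ter119 or the leukocyte marker CD45 were gated out of every group. At embryonic day (E) 14.5 the groups were P2 cells, with the surface phenotype CD54-CD31-Kit+CD24+, CD54+ cells (CD54+CD31-), and CD31+ cells (CD54+CD31+). At E18.5 there was a single group, CD54+CD31- cells, called E18.5 CD54+ cells below. Each group had 3 libraries. The study states independent litters for its E14.5 RNA-seq of P2, CD31+, and CD324+ cells, the last being its epithelial population. It names no CD54+ population there, so whether this covers the E14.5 CD54+ libraries is not stated. For the E18.5 group nothing in the sources used here says that the libraries are separate animals, so its spread may be technical. CD31 marks endothelium, Kit is the receptor of stem cell factor, and the study places P2 cells among erythroid progenitors. In bulk RNA of sorted cells, fewer cells of a type and less RNA per cell cannot be told apart.

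Erythropoietin is the hormone that keeps late erythroid progenitors alive and dividing, and in the fetus the liver itself is a source of it. Its receptor has no enzyme activity of its own and works through the bound tyrosine kinase JAK2, which phosphorylates the receptor tail and the transcription factors STAT5A and STAT5B. Phosphorylated STAT5 enters the nucleus and induces, among other genes, its own inhibitors of the SOCS family and the survival kinase PIM1. Several other cytokine receptors, such as those of growth hormone and prolactin, use the same kinase and the same STATs, so that the kinase, the STATs, and their targets are not particular to erythroid cells.

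Each library held between 40714017 and 64368883 counts, of which *Cdk8*, *Zc3h7a*, and *Il1rapl1* took between 10.8% and 23.1%. Levels are given as CPM, the counts divided by the TMM-adjusted library size and scaled to a fixed depth, and genes were compared between groups, not with each other. Of the 465 coding genes that lie inside a gene of the other strand and share almost no exonic bases with it, 98.5% were listed at 0 in every library, as were 99.1% of the 214 inside a gene of the same strand, against 11.7% of the 20726 coding genes inside no other gene. Reads in a stretch covered by more than 1 gene, introns and both strands included, are thus largely missing from the table, and this touches *Epo* and *Cish*. The marker lists matched the sorted groups in part. Erythroid markers summed to 2370 to 2547 CPM in P2 cells and to at most 899 CPM in any other library, with *Alas2*, which lies wholly inside *Apex2*, at 0 everywhere. Hepatoblast markers summed to 78432 to 90415 CPM in E14.5 CD54+ cells and to 5326 CPM in replicate 1 of the E18.5 CD54+ cells, with 45267 and 59080 CPM in replicates 2 and 3. Endothelial markers summed to 10246 to 10948 CPM in CD31+ cells and to 462 CPM in P2 replicate 2, with at most 267 CPM in any other library. The E18.5 CD54+ libraries stood apart: lung epithelial markers, led by the surfactant gene *Sftpc*, summed to 21669, 9763, and 9948 CPM in them and to 96.6 to 250.1 CPM in the others, and stellate and mesenchymal markers to 3987 to 4411 CPM against at most 243 CPM. In the other groups nearly all of the lung epithelial sum was *Abca3*, with means of 239 CPM in P2, 157 in E14.5 CD54+, and 99.6 in CD31+ cells. The part of lung RNA in the E18.5 results below was not tested.

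**Figure D1:**
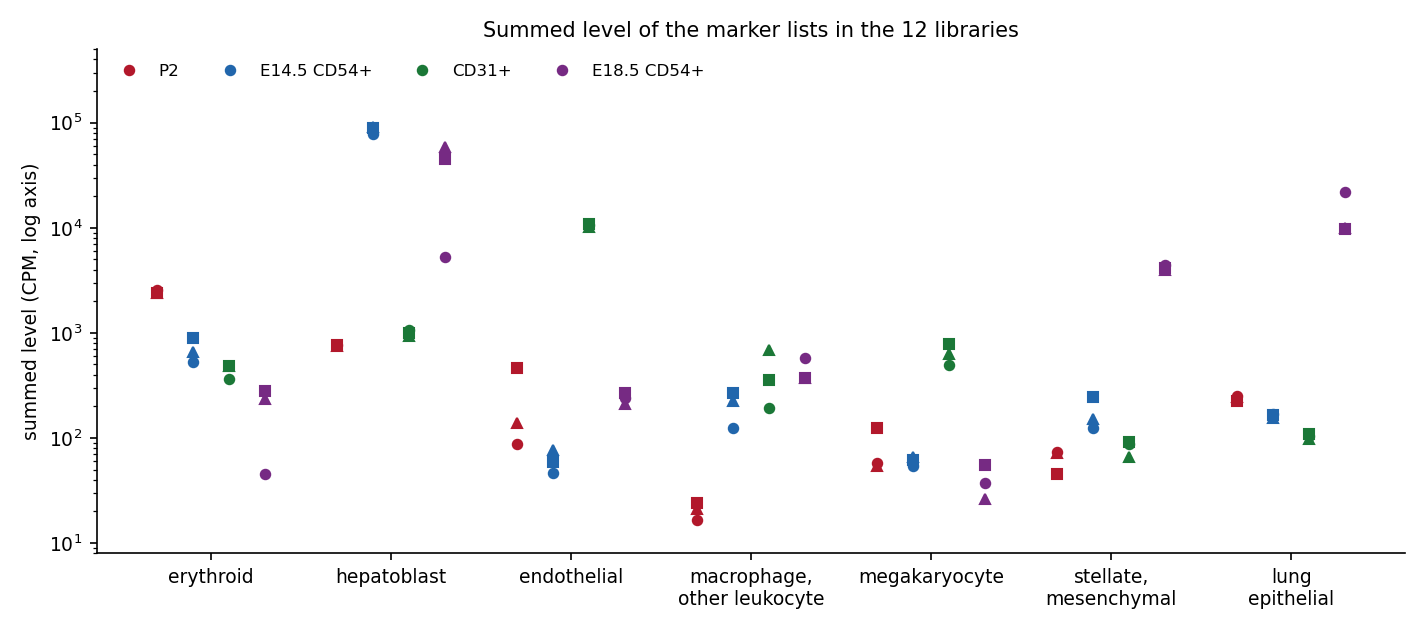
Summed level of each marker list (vertical axis, CPM on a log axis) in the 12 libraries, by list on the horizontal axis, with color for the group and symbol for the replicate (1 circle, 2 square, 3 triangle). Lung epithelial markers reached 9763 CPM or more in the 3 E18.5 CD54+ libraries and at most 250.1 CPM, nearly all of it *Abca3*, in the other 9. E18.5 replicate 1 had 5326 CPM of hepatoblast markers.

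*Epor* and *Stat5a* were highest in P2 cells and *Jak2* was high there. The targets *Cish* and *Socs3* were lowest there, but the target *Socs2* was not. It was 4.87-fold higher in P2 than in E14.5 CD54+ cells and 2.07-fold lower than in CD31+ cells. *Epor* was 6.93-fold and *Stat5a* 3.20-fold higher in P2 cells than in E14.5 CD54+ cells, and *Cish* and *Socs3*, both feedback inhibitors, were 10.9-fold and 6.18-fold lower. *Epor*, *Stat5a*, and *Stat5b* were lower in E18.5 than in E14.5 CD54+ cells, and *Cish*, *Socs2*, and *Socs3* were higher. The E18.5 libraries were also the ones with the lung epithelial and stellate markers given above, whose part was not tested. *Pim1* lay between 14.4 and 35.0 CPM over the 12 libraries and passed no test.

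A gene was called where its p from the quasi-likelihood test of edgeR, adjusted over all genes tested by Benjamini-Hochberg, was under 0.05. In P2 against E14.5 CD54+ cells, 4 of the 9 genes were called higher and 3 lower, where 31.4% of all genes tested were higher and 34.3% lower. In P2 against CD31+ cells, 3 were higher and 3 lower, beside 31.5% and 36.2% of all genes. CD31+ cells had 3 of the genes higher and 3 lower than E14.5 CD54+ cells, beside 29.8% and 31.1%. E18.5 CD54+ cells had 3 higher and 4 lower than E14.5 CD54+ cells, beside 30.6% and 38.0%. The median log2 fold change of the 9 genes was 0.04, -0.12, 0.08, and -0.23 in the same order, beside -0.06, -0.17, -0.03, and -0.14 over all genes. These shares of the 9 genes were near those of the whole table, so the counts alone say little, and what follows is about which genes moved and by how much. The balance of all calls depended on the scaling. Of the genes called in P2 against E14.5 CD54+ cells 47.8% were higher with TMM and 36.4% with the authors' factors, against CD31+ cells 46.5% and 32.8%, and between the ages 44.6% and 60.6%.

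**Figure D2:**
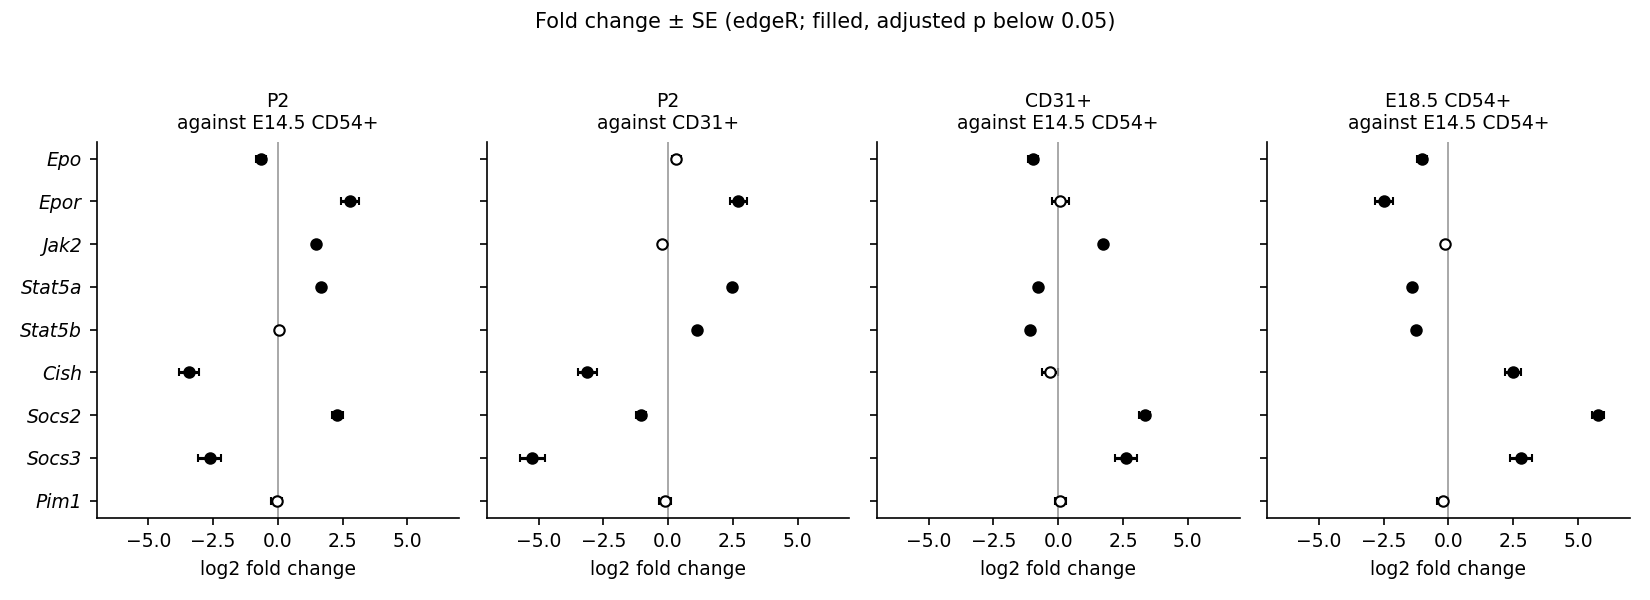
Log2 fold change with its SE (horizontal axis, edgeR, n = 3 libraries per group) of the 9 genes (vertical axis) in the 4 comparisons, filled where the adjusted p was below 0.05. *Epor* and *Stat5a* lie to the right in both P2 panels, *Cish* and *Socs3* to the left, and *Pim1* is open in all 4.

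**Figure D3:**
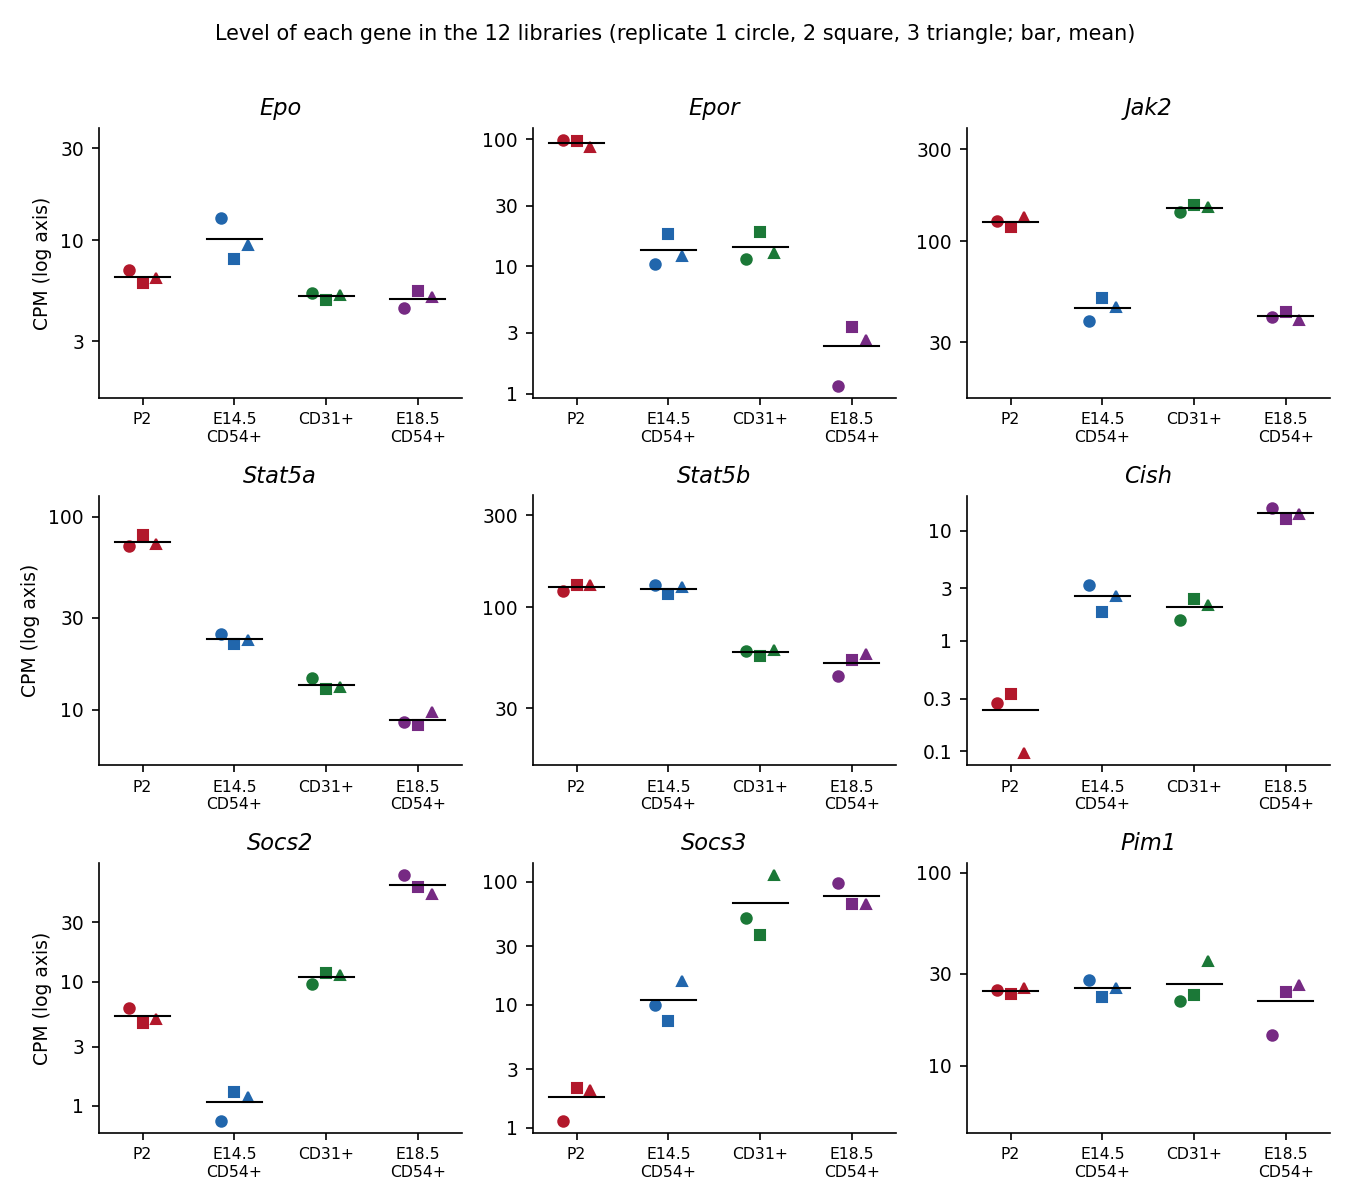
Level of each gene (vertical axis, CPM on a log axis) in every library of the 4 groups (horizontal axis), with a symbol per replicate and a bar at the mean. *Epor* was at 86.1 CPM or more in the P2 libraries and at 18.6 CPM or less elsewhere, and *Socs2* at 50.7 CPM or more in the E18.5 libraries and at 11.7 CPM or less elsewhere.

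*Epo*, the ligand, was counted at low levels in every group. In the annotation (GENCODE vM21, GRCm38) the gene runs over 50223 bases on the minus strand, chr5:137483020-137533242, because 1 of its transcripts starts in an exon of *Gnb2*. The genes *Pop7*, *Gigyf1*, and *Gnb2* overlap that span, 15585 of its bases belong to another gene as well, and all 3 were listed at 0 in every library. Reads from the stretches between those genes cannot be told apart here from reads of the *Epo* transcript. E14.5 CD54+ cells had 13.0, 7.99, and 9.42 CPM in replicates 1, 2, and 3, and P2 cells 7.003, 5.97, and 6.33 CPM. CD31+ cells had 5.35, 4.88, and 5.21 CPM and E18.5 CD54+ cells 4.46, 5.43, and 5.05 CPM. The 3 E14.5 CD54+ libraries were above all others, and replicate 1 was well above the other 2. *Epo* was lower than in E14.5 CD54+ cells by a log2 fold change of -0.66 ± 0.18 (SE, adjusted p = 0.00750) in P2 cells, -0.98 ± 0.18 (0.000668) in CD31+ cells, and -1.03 ± 0.18 (0.000389) in E18.5 CD54+ cells. The difference from P2 cells was lost without E14.5 CD54+ replicate 1 (-0.21, adjusted p = 0.298) or replicate 3 (-0.54, 0.0501) and with no low count filter (-0.46, 0.0739). P2 and CD31+ cells did not pass the test against each other (log2 fold change 0.32 ± 0.18, adjusted p = 0.139), though their libraries did not overlap. That difference passed it without E14.5 CD54+ replicate 1 (0.54, adjusted p = 0.00790), 2 (0.53, 0.0174), or 3 (0.53, 0.0338) and with no low count filter (0.51, 0.0459), and it was -0.06 with the authors' factors. E18.5 CD54+ and CD31+ cells, a comparison in which 68.5% of all genes were called, overlapped in *Epo* (adjusted p = 0.830). The genes most like *Epo* over the 12 libraries were *Pi4kb*, *Slc12a4*, and *Map3k4* (Pearson's r between 0.926 and 0.952 on log2(CPM + 1)).

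Of 12 listed genes of oxygen sensing and *Epo* transcription, 1 was higher and 6 lower in P2 than in E14.5 CD54+ cells (median log2 fold change -0.68, beside -0.06 over all genes tested). *Hnf4a*, a liver transcription factor known to act at the *Epo* enhancer, had 559 ± 13.8 CPM (SD, n = 3) in E14.5 CD54+ cells and 7.63 ± 0.520 in P2 cells. *Epas1*, which encodes the hypoxia factor HIF-2α, had 485 ± 21.9 CPM in CD31+ cells, 110.2 ± 12.3 in E14.5 CD54+ cells, and 11.3 ± 9.22 in P2 cells. *Gata2*, a repressor of *Epo*, was the list's single gene higher in P2 than in E14.5 CD54+ cells (6.41 ± 1.75 against 0.860 ± 0.575 CPM), and it stood at 36.7 ± 2.67 CPM in CD31+ cells. Against CD31+ cells, 8 of the 12 were lower in P2 cells, beside 36.2% of all genes, and 4 were not called. Between the ages 4 rose and 3 fell, beside 30.6% and 38.0% of all genes. *Egln3*, a prolyl hydroxylase that marks hypoxia factors for decay, rose from 0.926 ± 0.1505 to 47.2 ± 7.06 CPM.

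*Epor*, the receptor (chr9:21958897-21963506, minus strand), separated P2 cells from all other groups. P2 cells had 97.9, 95.9, and 86.1 CPM in replicates 1, 2, and 3. E14.5 CD54+ cells had 10.5, 17.9, and 11.99 CPM, CD31+ cells 11.5, 18.6, and 12.8 CPM, and E18.5 CD54+ cells 1.16, 3.33, and 2.63 CPM. Every P2 library was thus above every other, and every E18.5 library below every E14.5 library. The log2 fold change was 2.79 ± 0.34 (SE, adjusted p = 1.82e-05) in P2 against E14.5 CD54+ cells and 2.71 ± 0.33 (2.04e-05) against CD31+ cells. CD31+ and E14.5 CD54+ cells, next to each other in that order, overlapped and did not pass the test (0.09 ± 0.32, adjusted p = 0.831). From E14.5 to E18.5 *Epor* fell in CD54+ cells by 2.497 on the log2 scale (SE 0.34, adjusted p = 5.19e-05), and by 2.17 without E18.5 replicate 1.

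The level of *Epor* outside P2 cells lay within the range of other erythroid genes, near its lower end in E18.5 CD54+ cells. As a percent of the P2 mean, *Epor* was at 14.4% in E14.5 CD54+ cells. There 11 erythroid markers ranged from 12.7% (*Ermap*) to 186% (*Slc4a1*) with a median of 16.7%, and 4 of them were below *Epor*. In CD31+ cells *Epor* was at 15.3%, beside 8.25% to 105% and a median of 12.9%, and 6 of the 11 markers were below it. In E18.5 CD54+ cells it was at 2.54%, beside 2.18% (*Klf1*) to 55.5% and a median of 8.90%, and only 1 of the 11 markers was below it. Library by library, replicate 2 was the highest of the E14.5 CD54+ libraries for *Epor* (19.2% of the P2 mean) and for *Klf1*, the erythroid Krüppel-like factor (19.5%), and replicate 1 the lowest of the E18.5 libraries for both (1.24% and 0.714%). Whether erythroid RNA carried *Epor* into the non-erythroid libraries was not tested.

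**Figure D4:**
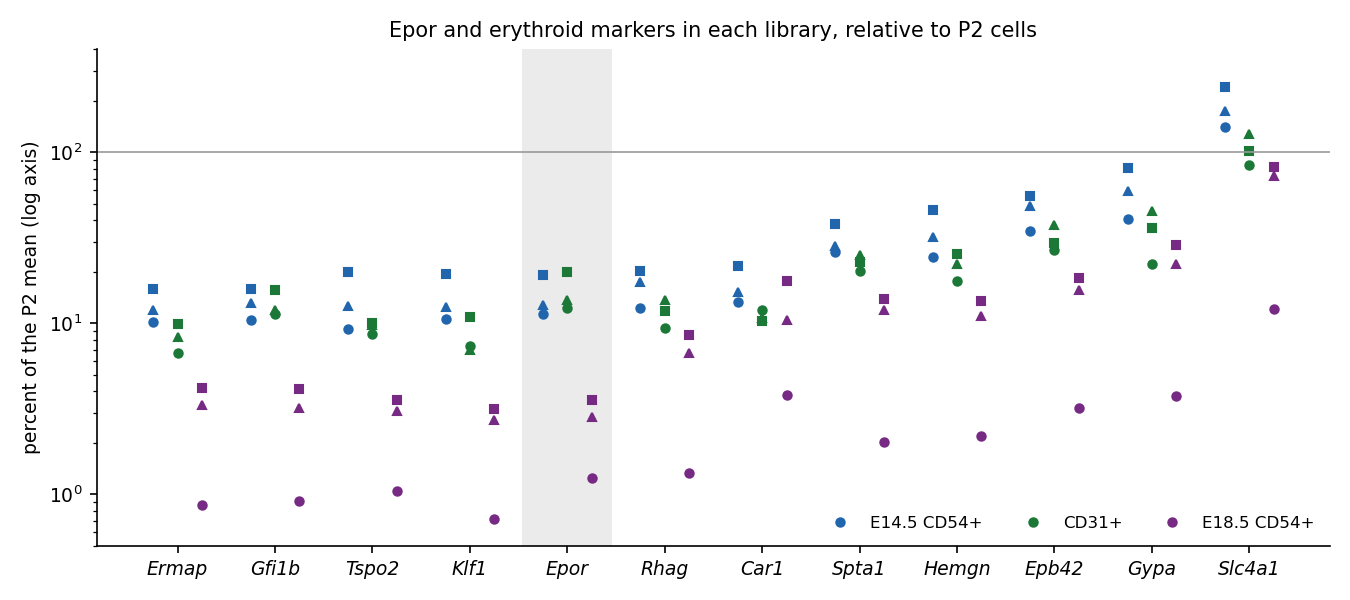
Level of *Epor* (shaded) and of 11 erythroid markers in each library of the 3 other groups, as a percent of the P2 mean (vertical axis, log; the line is at 100%), ordered by the E14.5 CD54+ mean, with a symbol per replicate. *Epor* lay near *Klf1* in E14.5 CD54+ cells, and every gene shown but *Slc4a1* was below 100% in all 9 libraries.

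The region just before the start of *Epor* is shown because its letters include the motifs of GATA1 and Sp1, which are known to activate this promoter. The stretch is the 250 bases before the RefSeq start (GRCm38.p6, chr9:21963577-21963826, minus strand), with TTATCT, the reverse complement of the GATA motif AGATAA, and the GC box CCGCCC in capitals.
Epor: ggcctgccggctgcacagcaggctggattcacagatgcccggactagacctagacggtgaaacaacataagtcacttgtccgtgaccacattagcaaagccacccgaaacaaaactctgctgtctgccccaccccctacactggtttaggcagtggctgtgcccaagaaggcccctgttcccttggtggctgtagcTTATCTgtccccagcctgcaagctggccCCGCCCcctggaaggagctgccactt
The GATA match began 54 bases before the start and the GC box 26 bases before it. Searched on both strands, AGATAA or TGATAA occurs in 18.6% of 32851 RefSeq windows of the same kind (250 bases before and 50 after a start) and CCGCCC in 35.7%, so that neither is rare, and a match describes letters, not binding. Windows were found for 8 of the 9 genes and not for *Socs2*. Of these, *Epo* also held a GATA match and *Jak2*, *Stat5a*, *Stat5b*, *Cish*, *Socs3*, and *Pim1* a GC box in at least 1 window.

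The factors that act on *Epor* moved with it in part. *Gata1* had 173, 184, and 170.1 CPM in the P2 libraries and between 17.3 and 34.6 CPM in the E14.5 CD54+ libraries, with a log2 fold change of 2.79 ± 0.40 (SE, adjusted p = 7.12e-05). *Tal1*, its partner in erythroid complexes, had 275 ± 13.8 CPM in P2, 44.7 ± 16.2 in E14.5 CD54+, 83.7 ± 13.6 in CD31+, and 10.6 ± 6.79 in E18.5 CD54+ cells. *Sp1*, a widely expressed factor, was not called in any of the 4 comparisons and had 142 ± 13.3, 119 ± 13.4, 131 ± 15.2, and 117 ± 4.90 CPM in the same order. Of the 7 listed regulators 6 could be tested. *Zfpm1*, which lies wholly inside *Gm20388*, was at 0 everywhere and left out. In P2 cells 5 of the 6 were higher in both comparisons, beside 31.4% and 31.5% of all genes. The median log2 fold change of the 6 was 2.55 against E14.5 CD54+ cells and 1.96 against CD31+ cells, beside -0.06 and -0.17 over all genes. Between the ages 4 fell, beside 38.0% of all genes. Of the 6 only *Ldb1* passed the test between CD31+ and E14.5 CD54+ cells (138 ± 19.2 against 57.9 ± 5.20 CPM). Over the 12 libraries, *Gata1* was also the gene most like *Epor* among the 9286 other genes with a mean of at least 10 CPM (r = 0.996). It was followed by *Nme4*, *Ppid*, *Gfi1b*, *Trim59*, *Kcnn4*, *Mphosph10*, *Cenpu*, *Ubac1*, and *Recql4*, with r between 0.993 and 0.996. These r describe 4 groups of libraries rather than 12 independent points.

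*Jak2*, the kinase (chr19:29251828-29313080, plus strand), was high in P2 and in CD31+ cells. CD31+ cells had 142, 154, and 151 CPM in replicates 1, 2, and 3, and P2 cells 128, 118, and 134 CPM. E14.5 CD54+ cells had 38.8, 50.8, and 45.6 CPM and E18.5 CD54+ cells 40.7, 43.3, and 39.4 CPM. The first 2 groups thus lay above the others with no overlap. *Jak2* was higher than in E14.5 CD54+ cells by a log2 fold change of 1.49 ± 0.10 (SE, adjusted p = 2.66e-07) in P2 cells and 1.73 ± 0.11 (1.22e-07) in CD31+ cells. P2 cells were lower than CD31+ cells by 0.24 ± 0.10 on the log2 scale, short of the threshold (adjusted p = 0.0573), and past it with the authors' factors (-0.62), in a fit of those 6 libraries alone (-0.21), and in a fit of the 9 E14.5 libraries (-0.25). E18.5 and E14.5 CD54+ cells overlapped (-0.13 ± 0.10, adjusted p = 0.273), with the sign turned and the call made with the authors' factors (0.29, 0.0103) and with at least 10 counts asked of every library (0.24, 0.0372). The genes most like *Jak2* over the 12 libraries were *Cnr2*, *Slc43a3*, and *Me2* (r between 0.991 and 0.994).

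The sister kinases and the other STATs had other profiles. Against CD31+ cells, P2 cells had 7 of the 8 lower, beside 36.2% of all genes, and 1 not called (median log2 fold change -1.02, beside -0.17 over all genes). *Jak1* had 836 ± 29.4 CPM in CD31+ cells, 310.4 ± 11.5 in E14.5 CD54+ cells, and 216 ± 14.1 in P2 cells, and *Jak3*, a kinase of lymphoid cytokine receptors, 71.1 ± 2.33, 6.05 ± 0.685, and 10.3 ± 0.684. *Stat3*, the main STAT of interleukin-6 signaling, was highest in E14.5 CD54+ cells (206 ± 2.20 CPM) and lowest in P2 cells (64.0 ± 5.30). *Stat6* was 1.41 higher on the log2 scale in P2 than in E14.5 CD54+ cells and 0.35 lower than in CD31+ cells. Against E14.5 CD54+ cells, 2 of the 8 were higher and 4 lower in P2 cells, beside 31.4% and 34.3% of all genes. In CD31+ cells 4 were higher and 2 lower, beside 29.8% and 31.1%, and between the ages 1 rose and 4 fell, beside 30.6% and 38.0%.

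*Stat5a* and *Stat5b* are neighbors on chromosome 11 (100859351-100885169, plus strand, and 100780731-100850724, minus strand) and encode near-identical proteins, so reads that fit both are uncertain. They differed in how far P2 cells stood apart. *Stat5a* had 70.5, 80.2, and 72.6 CPM in P2 replicates 1, 2, and 3, and 24.8, 21.9, and 23.1 CPM in E14.5 CD54+ cells. It had 14.6, 12.8, and 13.1 CPM in CD31+ cells and 8.64, 8.29, and 9.69 CPM in E18.5 CD54+ cells. No 2 groups overlapped, and each differed from the next in this order (log2 fold changes of 1.68 ± 0.10, 0.79 ± 0.10, and 0.60 ± 0.10 SE, adjusted p of 8.25e-08, 3.48e-05, and 0.000230). *Stat5b* had 122, 130.2, and 131 CPM in P2 cells and 129.6, 116, and 127 CPM in E14.5 CD54+ cells. CD31+ cells had 59.1, 55.8, and 60.3 CPM of it and E18.5 CD54+ cells 43.9, 53.3, and 57.5 CPM. The 4 groups thus fell into 2 pairs, with overlap inside each pair and none between them. P2 and E14.5 CD54+ cells were not told apart (0.04 ± 0.10, adjusted p = 0.773; -0.25 with the authors' factors and -0.01 in a fit of those 6 libraries), nor were CD31+ and E18.5 CD54+ cells (0.18 ± 0.10, 0.142). E14.5 CD54+ cells were above CD31+ cells by 1.09 ± 0.10 (adjusted p = 3.51e-06), and from E14.5 to E18.5 *Stat5b* fell by 1.27 and *Stat5a* fell by 1.39 on the log2 scale. Between P2 and CD31+ cells both genes were called, with P2 cells higher by 2.47 ± 0.10 in *Stat5a* (adjusted p = 1.56e-08) and by 1.13 ± 0.10 in *Stat5b* (1.92e-06).

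*Stat5a* made up 36.8 ± 1.22% (SD, n = 3) of the counts of both genes in P2 cells, 15.7 ± 0.355% in E14.5 CD54+ cells, 18.8 ± 0.990% in CD31+ cells, and 14.8 ± 1.52% in E18.5 CD54+ cells. The P2 libraries, at 35.7% to 38.1%, were above the highest other library at 19.8%. An exact two-sided permutation test of P2 cells against each other group gave p = 0.1, the smallest that 3 against 3 libraries allow. The counts were not divided by gene length, so the share compares groups and does not say which gene is the more abundant. Over the 12 libraries the genes most like *Stat5a* were *Gnl2*, *Trappc12*, and *Khsrp* (r between 0.991 and 0.992), and *Khk* and *Fam136a* were among those most like *Stat5b* (r of 0.990 and 0.988).

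**Figure D5:**
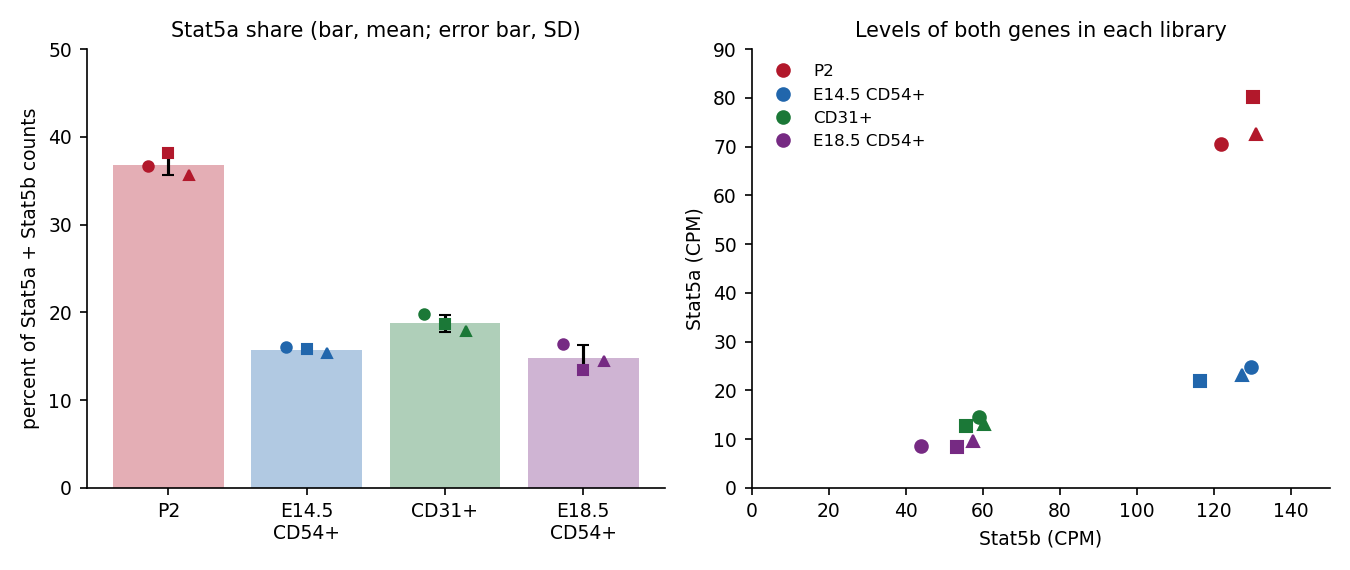
Left, *Stat5a* as a percent of the counts of *Stat5a* and *Stat5b* in each group (bar, mean; error bar, SD; n = 3; points, libraries). Right, the level of *Stat5a* (vertical, CPM) against that of *Stat5b* (horizontal, CPM) in each library: P2 and E14.5 CD54+ cells were alike in *Stat5b*, while *Stat5a* was at 70.5 CPM or more in P2 cells and at 24.8 CPM or less elsewhere.

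The 3 feedback genes *Cish*, *Socs2*, and *Socs3* are induced by STATs and encode proteins that bind the receptor or JAK and dampen the signal. For 2 of them the RefSeq window (GRCm38.p6) held TTCNNNGAA, the STAT motif, shown in capitals because these are the genes of the set that held it. 8.30% of the 32851 windows hold at least 1 such match and 0.457% at least 2. *Cish* had 2 matches, beginning at bases 1 and 12 of the RefSeq transcript (chr9:107296654-107296683, plus strand). *Socs3* had 1, beginning 154 bases before the RefSeq start (chr11:117969502-117969530, minus strand). The GENCODE span of *Cish* begins further upstream, at chr9:107296026, so these positions hold for the RefSeq start only.
Cish: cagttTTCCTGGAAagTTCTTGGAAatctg
Socs3: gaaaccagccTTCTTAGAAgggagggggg
The windows of *Epo*, *Epor*, *Jak2*, *Stat5a*, *Stat5b*, and *Pim1* held no match of these letters. All 3 feedback genes were highest on average in the E18.5 CD54+ libraries, the ones with the lung epithelial and stellate markers given above, whose part was not tested.

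*Cish* (chr9:107296026-107302784, plus strand) was nearly absent from P2 cells, with 12, 16, and 5 counts or 0.276, 0.333, and 0.0963 CPM in replicates 1, 2, and 3. E14.5 CD54+ cells had 3.22, 1.83, and 2.57 CPM, CD31+ cells 1.56, 2.42, and 2.11 CPM, and E18.5 CD54+ cells 16.1, 12.8, and 14.3 CPM. The P2 libraries were below all others and the E18.5 libraries above all others. The log2 fold change in P2 cells was -3.44 ± 0.38 (SE, adjusted p = 8.66e-06) against E14.5 CD54+ cells and -3.12 ± 0.37 (1.63e-05) against CD31+ cells, which did not differ from each other past the threshold (adjusted p = 0.387). *Cish* rose by 2.5 ± 0.32 on the log2 scale (adjusted p = 2.81e-05) from E14.5 to E18.5. Of its exonic bases 40.9% lie inside *Gm17040* or *Gm17041* on the other strand, where reads are missing as described above. The genes most like it were *Bcam*, *Lama5*, and *Cdk14* (r = 0.989), each of which was highest in E18.5 CD54+ cells.

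*Socs2* (chr10:95385362-95417180, minus strand) had the largest fitted fold of the 9 genes in the 4 comparisons. It had 0.764, 1.29, and 1.18 CPM in E14.5 CD54+ cells and 71.5, 57.1, and 50.7 CPM in E18.5 CD54+ cells. P2 cells had 6.18, 4.64, and 4.99 CPM and CD31+ cells 9.55, 11.7, and 11.3 CPM. No groups overlapped, and E18.5 CD54+ cells were 55.3-fold above E14.5 CD54+ cells (log2 fold change 5.79 ± 0.23 SE, adjusted p = 1.99e-08). Unlike *Cish* and *Socs3*, *Socs2* was higher in P2 than in E14.5 CD54+ cells (2.28 ± 0.21, adjusted p = 2.42e-06). It was lower in P2 than in CD31+ cells (-1.05 ± 0.19, 0.000388), and CD31+ cells were 10.1-fold above E14.5 CD54+ cells (3.33 ± 0.22, 1.95e-07). SOCS2 is best known as the brake on growth hormone signaling. *Ghr*, the growth hormone receptor, had 173 ± 11.9 CPM in E14.5 CD54+ cells, and 149 ± 43.1 CPM in E18.5 CD54+ cells. The genes most like *Socs2* were *Cux1*, *Atp11a*, and *Serpinb9* (r between 0.985 and 0.992).

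*Socs3* (chr11:117966079-117970047, minus strand), an inhibitor of JAK kinases that also answers to STAT3, was lowest in P2 cells at 1.15, 2.12, and 2.04 CPM. E14.5 CD54+ cells had 9.90, 7.33, and 15.7 CPM. CD31+ cells had 51.2, 37.2, and 113 CPM and E18.5 CD54+ cells 98.4, 65.7, and 66.6 CPM. These last groups overlapped (adjusted p = 0.677), and the other neighbors did not. P2 cells were lower by 2.63 ± 0.45 on the log2 scale than E14.5 CD54+ cells (adjusted p = 0.000295) and by 5.24 ± 0.49 than CD31+ cells (2.22e-06). CD31+ cells were above E14.5 CD54+ cells by 2.61 ± 0.43 (adjusted p = 0.000244), and *Socs3* rose by 2.81 ± 0.43 (0.000120) from E14.5 to E18.5. CD31+ replicate 3 was well above the other CD31+ libraries. Without it the differences were 2.01 from E14.5 CD54+ cells and -4.63 between P2 and CD31+ cells, both still called. Leukocyte markers summed to 694 CPM in that library and to 192 and 359 CPM in the other 2, and the part of leukocyte RNA was not tested. The genes most like *Socs3* were *Ube2h*, *Btbd7*, and *Abr* (r between 0.984 and 0.987).

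*Pim1* (chr17:29490753-29496112, plus strand), which encodes a serine/threonine kinase induced by STAT5, had similar levels in all groups. P2 cells had 24.6, 23.5, and 25.2 CPM, E14.5 CD54+ cells 27.6, 22.8, and 25.2 CPM, CD31+ cells 21.6, 23.3, and 35.0 CPM, and E18.5 CD54+ cells 14.4, 24.1, and 26.1 CPM. All groups overlapped, with CD31+ replicate 3 high and E18.5 replicate 1 low. The log2 fold change was -0.04 ± 0.22 (SE, adjusted p = 0.876) in P2 against E14.5 CD54+ cells, -0.12 ± 0.22 (0.642) against CD31+ cells, and -0.23 ± 0.22 (0.380) between the ages, and its sign turned with the scaling or filter in each. Between CD31+ and E14.5 CD54+ cells it was 0.08 ± 0.22 (adjusted p = 0.773). In E18.5 CD54+ against P2 cells, where 80.6% of all genes were called, *Pim1* was not (0.459). Its relatives moved more: *Pim3* rose from 13.0 ± 0.884 to 54.0 ± 3.97 CPM between the ages, and *Pim2* had 2.37 ± 0.398 CPM in E14.5 CD54+ and 0.866 ± 0.336 CPM in CD31+ cells. The genes most like *Pim1* were the globin genes *Hba-a2*, *Hbb-bs*, and *Hba-a1*, with a weaker likeness than that of the other members (r between 0.787 and 0.797).

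Of 16 further genes that answer to erythropoietin or STAT5, 6 were higher and 5 lower in P2 than in E14.5 CD54+ cells. Of all genes tested 31.4% and 34.3% were. Against CD31+ cells 7 were higher and 7 lower, beside 31.5% and 36.2% of all genes. *Podxl*, a sialomucin of progenitors, had 294 ± 28.3 CPM in P2 cells and 25.2 ± 8.50 in E14.5 CD54+ cells. *Myc* had 254 ± 5.06 and 47.9 ± 3.82 CPM. *Tfrc*, the transferrin receptor, had 752 ± 78.8 CPM in P2, 205 ± 38.4 in E14.5 CD54+, and 105 ± 19.9 in CD31+ cells. Lower in P2 cells were *Bcl6*, a repressor that STAT5 represses in other cells, at 0.326 ± 0.180 against 7.68 ± 1.96 CPM in E14.5 CD54+ cells, and *Id1*, at 3.501 ± 0.878 against 19.2 ± 2.62 CPM. CD31+ cells had 7 of the 16 higher and 6 lower than E14.5 CD54+ cells, beside 29.8% and 31.1% of all genes. Between the ages 10 rose and 4 fell, beside 30.6% and 38.0% (median log2 fold change 0.72, beside -0.14 over all genes). The list moved in both directions in every comparison, as did all genes tested.

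Among 16 adaptors and kinases that couple to the receptor, 8 were higher and 3 lower in P2 than in E14.5 CD54+ cells. Of all genes tested 31.4% and 34.3% were. Against CD31+ cells 4 were higher and 6 lower, near the 31.5% and 36.2% of all genes. *Gab2*, an adaptor of the phosphatidylinositol 3-kinase branch, had 71.5 ± 3.73 CPM in P2, 14.4 ± 1.67 in E14.5 CD54+, and 131 ± 14.4 in CD31+ cells. *Pik3cd*, the kinase's leukocyte subunit, had 28.0 ± 2.03, 9.62 ± 0.857, and 17.0 ± 4.71 CPM. *Tfr2*, a partner of the receptor in erythroid cells that hepatocytes also make, had 73.4 ± 6.06 CPM in P2, 95.7 ± 4.44 in E14.5 CD54+, and 6.34 ± 0.224 in CD31+ cells. CD31+ cells had 11 of the 16 higher and 4 lower than E14.5 CD54+ cells, beside 29.8% and 31.1% of all genes. Between the ages 4 rose and 6 fell, beside 30.6% and 38.0%.

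Of 9 negative regulators outside the set, 2 were higher and 3 lower in P2 than in E14.5 CD54+ cells. Of all genes tested 31.4% and 34.3% were. Against CD31+ cells 1 was higher and 6 lower, beside 31.5% and 36.2% of all genes. The median there was -1.35 on the log2 scale, beside -0.17 over all genes. *Socs1* was near the floor in P2 cells with 2, 7, and 4 counts, and had 3.33 ± 0.564 CPM in CD31+ cells. *Sh2b3*, which encodes the adaptor LNK, had 31.7 ± 4.5 CPM in P2, 27.6 ± 3.04 in E14.5 CD54+, and 103 ± 10.3 in CD31+ cells, and it fell to 19.3 ± 0.891 CPM at E18.5. *Inpp5d*, the phosphatase SHIP1, had 100.3 ± 2.17 CPM in P2 and 17.8 ± 5.09 in E14.5 CD54+ cells. The gene higher in the second comparison was *Ptpn6*, the phosphatase SHP1, which switches the receptor off and had 57.0 ± 11.9 CPM in P2 and 35.3 ± 3.74 in CD31+ cells. CD31+ cells had 7 of the 9 higher and 1 lower than E14.5 CD54+ cells, beside 29.8% and 31.1% of all genes. Between the ages 2 rose and 3 fell, beside 30.6% and 38.0%.

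Other receptors that use JAK2 or STAT5 were mostly lower in P2 cells. Of 15 listed, 13 could be tested. *Il5ra* was left out, as was *Il2rg*, which lies wholly inside *Gm20489*. In P2 cells 2 were higher and 9 lower than in E14.5 CD54+ cells, beside 31.4% and 34.3% of all genes. The median was -1.79 on the log2 scale, beside -0.06 over all genes. Against CD31+ cells 1 was higher and 9 lower, beside 31.5% and 36.2% (median -3.35, beside -0.17). *Ghr* had 6.88 ± 0.568 CPM in P2 and 70.1 ± 9.95 in CD31+ cells. *Csf2rb*, the shared chain of the granulocyte-macrophage cytokine receptors, had 0.465 ± 0.294 CPM in P2, 9.16 ± 3.10 in E14.5 CD54+, 14.0 ± 4.93 in CD31+, and 8.08 ± 4.196 in E18.5 CD54+ cells. Megakaryocyte markers summed to 491 to 782 CPM in CD31+ cells and to at most 123 CPM in any other library. Leukocyte markers summed to 16.7 to 24.2 CPM in P2 cells and to at least 124 CPM in any other library. The part of leukocyte or megakaryocyte RNA in these receptors was not tested. *Il2rb* was listed at 0 in the 3 P2 libraries, where 3 counts would be 0.0578 to 0.0689 CPM, and lay between 0.850 and 1.16 CPM in E14.5 CD54+ cells. *Ifngr1*, of the interferon gamma receptor, was higher in P2 cells in both comparisons (136 ± 17.7 CPM against 76.8 ± 5.92 and 73.3 ± 5.21). CD31+ cells had 6 of the 13 higher and 3 lower than E14.5 CD54+ cells, beside 29.8% and 31.1% of all genes. Between the ages 3 rose and 4 fell, beside 30.6% and 38.0%, with *Prlr*, the prolactin receptor, going from 0.180 ± 0.189 to 27.8 ± 20.5 CPM.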

How the data were processed

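RNA-seq of 12 libraries was analyzed, 3 for each of 4 sorted FL populations. Per the labels, the authors removed ribosomal RNA enzymatically, made libraries with a stranded total RNA kit for low input, and used cutadapt 1.11, STAR 2.5.0a, featureCounts 1.4.6-p3, R 3.5.1, and DESeq2 with GRCm38. The annotation release and the counting options were not given in the sources used here. The deposited counts are whole reads per gene, and beside them the authors deposited a score, which is each count rescaled by a library's own factor to a whole number and served here only to read that factor. The near-total absence of counts from genes nested in others on either strand, measured here with GENCODE vM21, is what counting over whole spans, introns included and strand ignored, would give.

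Counts were tested with edgeR 4.0.16 in R 4.3.3 (TMM over 12 libraries, filterByExpr, quasi-likelihood test with group as the only factor, Benjamini-Hochberg, adjusted p below 0.05), in 1 fit for all comparisons. The SE is the size of the log2 fold change over the root of its F value. Taken over many genes together, replicate pairs differed far beyond sampling noise (chi-square of 42.0 or more for each degree of freedom). Genes with many counts weigh most in this value. For genes with few counts, such as *Cish* in P2 cells, counting may limit precision as much as the spread of 3 libraries. In CD54+ and CD31+ cells of E14.5, deviations of same-numbered libraries had correlations of 0.334, 0.260, and 0.122. In CD31+ and P2 cells these were 0.0152, 0.0767, and 0.336 for replicates 1, 2, and 3. Libraries of different numbers were not compared, so this is a hint from the data alone. Alternatives were DESeq2 1.42.0, its size factors or the authors' factors in edgeR, other filters, abundant genes left out, the 6 compared or the 9 E14.5 libraries alone, the replicate number as a block, and each library left out.

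The genes and lists were chosen with earlier results of these data known. Named were all 9 genes, from each list up to 2 called genes per direction with the largest log2 fold change and no overlap between libraries, *Gata1*, *Tal1*, *Sp1*, *Ghr*, *Csf2rb*, and the genes with the highest Pearson's r with a member (10 for *Epor*, 3 for the others). Some genes that this rule names are not reported here. Lists are described by counts and medians, without a set test. Of the 154 listed genes outside the set, 11 have more than 50% of their exonic bases inside another gene, among them *Tyk2*, *Plcg1*, *Lmo2*, *Zfpm1*, *Il2rg*, and *Prlr*. Promoter windows are from RefSeq.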

Additional observations from a re-analysis of the deposited data

How the results depend on the processing

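The counts of called genes, over the 9 genes and over all genes tested, stayed within 1.5 times their values under every alternative run. Over all alternatives 5 to 8 of the 9 genes were called in a comparison, and with 1 library left out 6 or 7. Of the single-gene results under the alternatives, 699 kept direction and side of the threshold, 34 changed sign, 7 crossed the threshold upwards, and 3 fell short of it. The crossings concern *Epo* and *Jak2* and are given with those genes. Sign changes, as log2 fold changes, were as follows. In P2 against E14.5 CD54+ cells, *Stat5b* was -0.25 with the authors' factors and -0.0073 in the fit of 6 libraries. There *Pim1* was 0.049 with DESeq2's size factors, 0.16 with no filter, 0.030 with at least 10 counts in every library, 0.048 with DESeq2, and between -0.068 and 0.26 with 1 library left out. In P2 against CD31+ cells, *Epo* was -0.064 with the authors' factors, and *Pim1* was 0.062 with no filter and between -0.26 and 0.12 with 1 library left out. In CD31+ against E14.5 CD54+ cells with 1 library left out, *Epor* was between -0.15 and 0.32 and *Pim1* between -0.17 and 0.21. Between the ages, *Jak2* was 0.068 with DESeq2's size factors, 0.29 with the authors' factors, 0.056 in the fit of 6 libraries, 0.11 with no filter, 0.24 with at least 10 counts in every library, 0.076 with DESeq2, and between -0.17 and 0.14 with 1 library left out. There *Pim1* was 0.18 with the authors' factors, 0.018 with no filter, 0.14 with at least 10 counts in every library, and between -0.39 and 0.079 with 1 library left out. The cause of these changes was not tested. The authors' factors moved the median of all genes by -0.28 and -0.38 in P2 cells against E14.5 CD54+ and CD31+ cells and by 0.42 between the ages. *Cish* has no value with at least 10 counts in every library, because P2 replicate 3 had 5, and the fit of the 9 E14.5 libraries gives none for E18.5.

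With the replicate number as a block, the number of the 9 genes called stayed at 7, 6, 6, and 7 in the 4 comparisons. No call of these genes changed. The genes called over the table numbered 10884 in P2 against E14.5 CD54+ cells and 10139 in CD31+ against E14.5 CD54+ cells. The latter pairing had the highest mean correlation of same-numbered libraries (0.239).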
